A study of Bos taurus with 16 samples.

Results

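C1QB, C1S, CFD and CR2 are 4 genes of the complement system, and their RNA was counted in the gluteus medius muscle and the subcutaneous fat of Holstein bull calves. They were taken from 44265 features by their Ensembl identifiers: ENSBTAG00000011196 for C1QB, ENSBTAG00000004840 for C1S, ENSBTAG00000048122 for CFD and ENSBTAG00000038496 for CR2. All 4 were listed once in each of the 16 libraries, with no second identifier on the same merged locus, and all 4 passed the filter on low counts in both tissues. The calves were about 21 days old and drank milk replacer (8 L/day). For 10 days it was supplemented with 5-hydroxytryptophan (5-HTP, the immediate precursor of serotonin; 90 mg/day, 4 calves) or with saline (CON, 4 calves). Each calf gave 1 adipose and 1 muscle library, and the numbers 1 to 4 (CON) and 5 to 8 (5-HTP) in the labels were taken as the calf in both tissues. The genes were chosen by their FDR and logFC in muscle, where they were downregulated in 5-HTP-supplemented calves, so their muscle difference is described here without a test. The adipose values were not part of that choice, and the ratio between tissues shares with it the muscle levels of both groups.

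Complement is a cascade of plasma proteins that marks microbes and dying cells for removal. In the classical pathway the C1 complex is built from C1q, which recognizes antibody or other ligands, and from the serine proteases C1r and C1s. C1QB encodes the B chain of C1q, which tissue macrophages are known to make. C1S encodes C1s, the protease that cleaves C4 and C2 and is made by many stromal cells. CFD encodes complement factor D, a serine protease of the alternative pathway that cleaves factor B and is also known as adipsin, because adipocytes secrete it. CR2 encodes a receptor for fragments of C3 that is best known from B cells and follicular dendritic cells. In bulk tissue, fewer cells of a type and less RNA per cell cannot be told apart. Of the complement genes, these 4 were the ones that could be paired with an identifier, and the other components, such as C1R, which lies beside C1S in the RefSeq gene order of ARS-UCD2.0, were not analysed here.

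Library totals lay between 17289845 and 28649548 counts. At these depths 3 counts, taken as the least a library can show, equal 0.105 to 0.174 CPM (counts scaled to a common library size) on library totals. This covers counting error only. CPM values below were scaled by the trimmed mean of M-values (TMM) over all 16 libraries, which puts this floor higher in muscle and lower in adipose tissue. The TMM factors were 1.40 to 1.57 in adipose libraries and 0.550 to 0.717 in muscle libraries. In muscle, the 50 Ensembl features with the highest muscle to adipose ratio summed to between 308879 and 466589 CPM, and in adipose tissue to between 6.15 and 28.0 CPM. A locus of TTN (titin, XLOC_017327) was at 19.3 to 90.1 CPM in muscle and at 0 to 0.310 CPM in adipose tissue.

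In muscle, the members that start the classical pathway were lower in 5-HTP-supplemented calves, which is how they were chosen. CON calves 1 to 4 had 26.0, 13.8, 6.77 and 7.78 CPM of C1QB. Calves 5 to 8, which received 5-HTP, had 2.87, 6.91, 3.25 and 5.1 CPM. The highest 5-HTP value, that of calf 6, and the lowest CON value, that of calf 3, differed by little, and they changed order when library totals replaced TMM (4.62 and 4.76 CPM). For C1S the CON values were 125, 85.6, 48.2 and 31.4 CPM in calves 1 to 4. The values with 5-HTP were 23.7, 42.8, 22.4 and 24.9 CPM in calves 5 to 8. The groups of C1S overlapped through calf 6, and the other 3 calves given 5-HTP lay below every CON calf. The logFC was -1.57 for C1QB (standard error 0.43) and -1.34 for C1S (standard error 0.37), which is 2.97-fold and 2.54-fold lower.

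The protease of the alternative pathway and the receptor were lower as well. CON calves 1 to 4 had 7.97, 9.31, 4.55 and 6.28 CPM of CFD. Calves 5 to 8 with 5-HTP had 2.43, 3.73, 1.56 and 3.01 CPM. CFD was the member whose groups did not overlap on either scale. Among the 16878 genes tested in muscle, groups were apart in 2.62%, and 5-HTP lay below CON in 1.26%. For CR2 the CON values were 3.41, 5.42, 2.84 and 1.15 CPM in calves 1 to 4, and those with 5-HTP were 0.535, 1.24, 0.271 and 1.08 CPM in calves 5 to 8. CR2 had the lowest counts, from 103 in calf 2 down to 4 in calf 7 (95% exact Poisson interval 1.09 to 10.2 counts), and its groups overlapped between calves 4 and 6. The logFC was -1.38 for CFD (standard error 0.34) and -2.02 for CR2 (standard error 0.55), which is 2.60-fold and 4.06-fold lower.

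**Figure D1:**
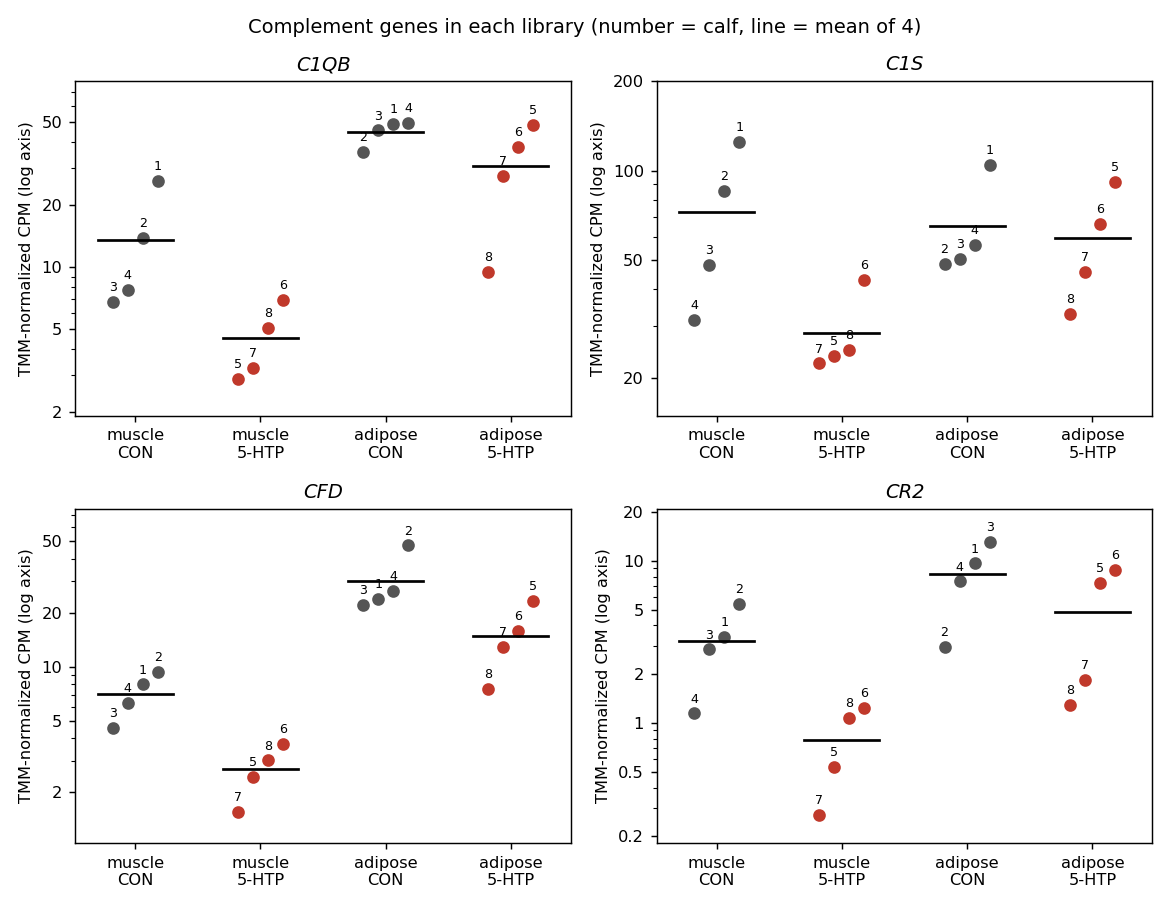
TMM-normalized CPM (log axis) of the 4 complement genes in each library, by tissue and treatment, where a point is a calf with its number and the line is the mean of 4 calves. In muscle the points of CON calves 1 and 2 lie highest for all 4 genes, and in adipose tissue the points of 5-HTP-supplemented calves 8 and 7 lie lowest.

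These muscle differences are the ones that chose the genes. By edgeR's likelihood ratio test, an FDR of 0.20 or less was reached by 0.201% of the genes tested in muscle, and 0.13% were also lower with 5-HTP. A logFC below 0 was found in 50.8% of them. The 4 members ranked 11, 26, 29 and 32 of the 34 genes called. The gene just inside the threshold had an FDR of 0.199 and the gene just outside 0.227 in edgeR. By the quasi-likelihood variant of edgeR, 0.00592% of genes reached an FDR of 0.20 or less, and 0 of the 4 members did. The median logFC of the 4 members was -1.48, next to -0.01 over all genes tested in muscle. When each calf was left out in turn, the logFC was smallest in size without calf 1 for C1QB (-1.07) and C1S (-0.96), without calf 2 for CR2 (-1.65) and without calf 7 for CFD (-1.19). It was largest in size without calf 6 for all 4, at -1.84 for C1QB, -1.60 for C1S, -2.34 for CR2 and -1.58 for CFD.

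The level of adipose transcripts in muscle was measured beside these values. It was taken from the 50 Ensembl features with the highest adipose to muscle ratio among those with at least 100 CPM in adipose tissue. Their summed level in muscle was 334, 260, 226 and 233 CPM in CON calves 1 to 4 and 215, 209, 216 and 208 CPM in calves 5 to 8 given 5-HTP. All 4 CON libraries lay above all 4 5-HTP libraries, with calves 1 and 2 highest, and the mean was 1.24-fold higher in CON calves. These sums were 0.745% to 1.2% of the mean sum in adipose tissue (27904 CPM). CFD in muscle was between 6.95% and 41.5% of its mean in adipose tissue, and an adipose share of 1.2% would hold 0.269 CPM of CFD, 0.455 CPM of C1QB, 0.744 CPM of C1S and 0.0786 CPM of CR2. The 50 features were picked for their high ratio in these same libraries, which makes their share in muscle small by choice. In muscle 37 of the 50 had a lower mean with 5-HTP, and the groups of 3 did not overlap. Of all genes tested in muscle, 50.8% had a logFC below 0 and 2.62% had groups apart. In adipose tissue 23 of the 50 had a lower mean with 5-HTP. The part of adipose tissue in the members' muscle values was not tested. Of the marker lists, 1 of 7 macrophage markers was paired with an identifier (SIGLEC1, a sialic acid receptor of macrophages), and 0 of 6 B cell, 0 of 6 adipocyte and 0 of 5 fibroblast markers. SIGLEC1 in muscle was 2.49, 3.58, 1.99 and 1.59 CPM in CON calves 1 to 4 and 0.876, 1.12, 0.542 and 0.861 CPM in calves 5 to 8 given 5-HTP. All 4 CON calves lay above all 4 others. SIGLEC1 got its symbol from the study's list of genes that differed in muscle, so its lower level with 5-HTP was part of that choice. The part of macrophages or of the other cells in the members' values was not tested.

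In adipose tissue no member was called, and the estimates were below 0 for all 4. Of the 20167 genes tested, 49.3% had a logFC below 0. By edgeR's likelihood ratio test 0.109% were called at an FDR of 0.20 or less, 0.0545% with a lower level in 5-HTP-supplemented calves, and by its quasi-likelihood test 0.00496%. Of the members, 0 were called by either test of edgeR, and 1 of the 4, CFD, had an unadjusted P value under 0.05 in each. Groups were apart in 2.44% of genes, with 5-HTP below CON in 0.977%, and in none of the members. The median logFC of the members was -0.69, next to 0.01 over all genes tested.

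CFD had the logFC farthest from 0 in adipose tissue with all calves, although CR2 was farther without calf 2 (-1.08 for CR2) and without calf 6 (-1.25 for CR2, -1.08 for CFD). CON calves 1 to 4 had 24, 47.4, 22.2 and 26.4 CPM, and calves 5 to 8 with 5-HTP had 23.3, 15.8, 13 and 7.56 CPM. The values of 3 of the 4 calves given 5-HTP lay below every CON value, and calf 5 lay within the CON range. The logFC of CFD was -1.07 (SE 0.37; FDR = 0.767 in edgeR), while an exact permutation of the 8 calves gave p = 0.0571 (two-sided, 0.229 adjusted over the 4 genes). It was -0.70 without CON calf 2, which held the highest value, and -1.37 without calf 5, with FDR values from 0.241 upwards over all alternatives in edgeR and DESeq2.

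Adipose C1QB was 49.1, 35.9, 45.7 and 49.5 CPM for CON calves 1 to 4 and 48.4, 37.9, 27.6 and 9.45 CPM for calves 5 to 8 with 5-HTP. Calf 8 lay far below calf 7, the next lowest, and calves 5 and 6 lay within the CON range. The logFC was -0.58 (standard error 0.38, FDR = 0.999 in edgeR) and ranged from -0.89 without calf 5 to -0.28 without calf 8 (exact permutation test over all 8 calves, two-sided p = 0.20). Adipose CR2 was 9.67, 2.94, 13.1 and 7.47 CPM for CON calves 1 to 4 and 7.32, 8.81, 1.83 and 1.29 CPM for calves 5 to 8 with 5-HTP. For CR2 calves 2, 7 and 8 were low and the other 5 high, and the groups overlapped. Its logFC was -0.80 (SE 0.59; FDR = 0.999 in edgeR; exact permutation test p = 0.20), and it ranged from -1.25 without calf 6 to -0.50 without calf 8. SIGLEC1 in adipose tissue, at 3.25 to 14.4 CPM, was likewise lowest in calves 8, 2 and 7.

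Adipose C1S was 104, 48.5, 50.6 and 56.4 CPM for CON calves 1 to 4 and 92.0, 66.2, 45.6 and 33.0 CPM for calves 5 to 8 with 5-HTP. The ranges nearly coincided, with calf 1 highest and calf 8 lowest. Its logFC was -0.16 (standard error 0.34, 95% interval -0.83 to 0.51, FDR = 0.999 in edgeR), and the exact permutation test gave p = 0.714. The direction turned without calf 1 (logFC 0.14) and without calf 8 (logFC 0.03). Calf 8 had the lowest adipose value of all 4 members, and calf 7 the second lowest.

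**Figure D2:**
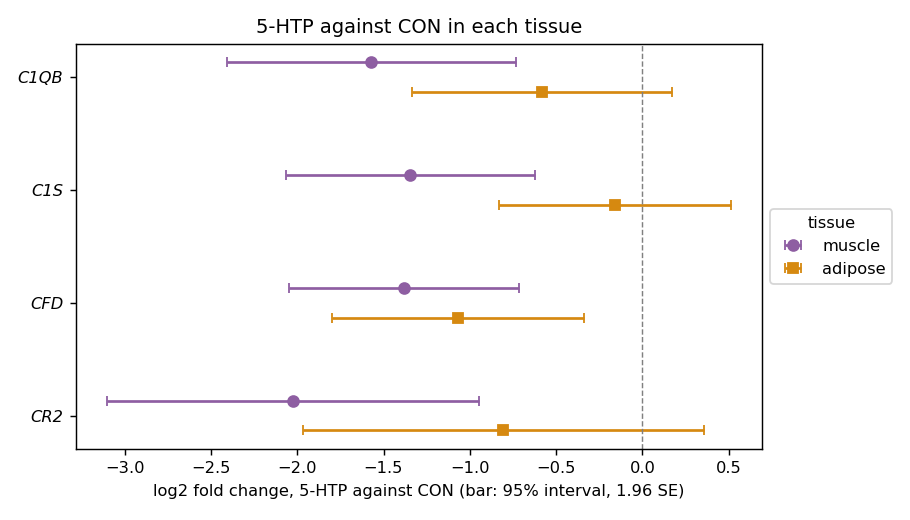
The logFC of 5-HTP against CON (x axis, log2 scale) for each gene in muscle (circles) and adipose tissue (squares), with 95% intervals from the fitted model of each tissue (8 libraries). All 4 muscle intervals, which belong to the comparison that chose the genes, lie below 0, and in adipose tissue the interval of CFD does (-1.80 to -0.34).

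The difference between the tissues in the effect of 5-HTP rests in part on the muscle values that chose the genes, so it is given as a description. The logFC in muscle less that in adipose tissue was -1.01 for C1QB (standard error 0.61), -1.20 for C1S (0.54), -0.33 for CFD (0.51) and -1.23 for CR2 (0.85) in the model over all 16 libraries. The estimates of CFD in the tissues were nearest to each other, and those of CR2 and C1S farthest apart. Of the 21849 genes in this model, 0.087% were called at an FDR of 0.20 or less for the interaction in edgeR. None of the 4 members was among them, which is not read as a test of them or as a sign of equal effects. In the order of the members, the differences were -0.69, -1.02, -0.33 and -0.98 with the calf number as a block.

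Between the tissues, C1QB, CFD and CR2 had higher levels in adipose tissue, and C1S was near the middle of all genes. The log2 ratio of adipose to muscle was 2.21 for C1QB (standard error 0.32, FDR = 1.42e-10), 2.25 for CFD (0.25, FDR = 1.73e-17) and 1.93 for CR2 (0.44, FDR = 5.12e-05) in the likelihood ratio test of edgeR over 16 libraries. These are 4.61-fold, 4.77-fold and 3.80-fold. C1S had a log2 ratio of 0.41 (standard error 0.29, FDR = 0.220, edgeR). Of all 21849 genes, 67.5% were called at an FDR of 0.05 or less and 36.6% were higher in adipose tissue, so 3 of 4 members is to be read against that share. By the quasi-likelihood test of edgeR these shares were 65.8% and 35.3%, and the same 3 members were called. A log2 ratio above 0 was found in 54.3% of genes. Libraries of the tissues did not overlap in 14.9% of genes, with adipose tissue higher, and in none of the members. The ratio of C1QB was above that of 88.1% of all genes, that of CFD above 88.5%, that of CR2 above 86.0% and that of C1S above 58.0%.

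The ratio itself depended on the scaling, because the TMM factors differed between the tissues. With library totals only, an alternative added after the data were seen, the median log2 ratio of all genes moved from 0.14 to 1.33, and 85.1% of genes were called, 73.2% higher in adipose tissue. On that scale the log2 ratio was 3.45 for C1QB, 3.44 for CFD, 3.13 for CR2 and 1.65 for C1S (FDR = 6.20e-08, edgeR), and all 4 were called. Relative to other genes the members were above 88.7%, 88.6%, 86.2% and 59.6% of all genes. The change of scaling shifts the ratios of all genes together, so these positions could change little.

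Calf by calf, C1QB was higher in adipose tissue in 8 of 8 calves, by 1.86-fold to 16.9-fold, and its mean log2 ratio was 2.28 ± 1.13 (SD, n = 8; exact sign-flip permutation test p = 0.00781, the smallest that 8 calves allow, 0.0156 adjusted over 4 genes). CFD was higher in 8 of 8 calves, by 2.51-fold to 9.56-fold, with a mean log2 ratio of 2.25 ± 0.66 (SD, n = 8; exact sign-flip permutation test p = 0.00781). The ratios of these 2 genes were similar in size, and C1QB lay above CFD in 5 of 8 calves. For all genes tested, 23.9% were higher in adipose tissue in every calf. CR2 was higher in 7 of 8 calves, with a mean log2 ratio of 1.89 ± 1.53 (SD, n = 8; exact sign-flip permutation test p = 0.0234, adjusted 0.0312). The exception was CON calf 2, which had the highest CR2 in muscle and the lowest of the CON calves in adipose tissue. C1S was higher in adipose tissue in 6 of 8 calves and lower in CON calves 1 and 2, with a mean log2 ratio of 0.48 ± 0.85 (SD, n = 8; exact sign-flip permutation test p = 0.148). The adipose and muscle libraries numbered 1 and 2 had correlations of -0.25 and -0.08 in their deviations across 14460 loci. Their pairing by number is therefore uncertain. With library totals only, all 4 genes were higher in adipose tissue in 8 of 8 calves (exact sign-flip permutation test p = 0.00781 each), with a mean log2 ratio of 1.65 for C1S and a ratio of 0.20 for CR2 in calf 2. On that scale the median log2 ratio of all genes was 1.33, so a test against 0 includes the shift in scaling. The share of all genes higher in every calf is not given for that scale. On the TMM scale the C1S ratio was below those of C1QB and CFD in 8 of 8 calves.

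The ratios were also taken within each treatment group. Both groups' ratios contain muscle values that chose the genes, so they are described without a test. In CON calves alone the log2 ratio was 1.73 for C1QB, 2.12 for CFD, 1.36 for CR2 and -0.17 for C1S. In 5-HTP-supplemented calves alone it was 2.77 for C1QB, 2.48 for CFD, 2.62 for CR2 and 1.07 for C1S. For C1S the estimate was below 0 in CON calves and above 0 in all calves together. Choosing genes lower in muscle with 5-HTP can itself lower the ratio in CON calves and raise it in the others.

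**Figure D3:**
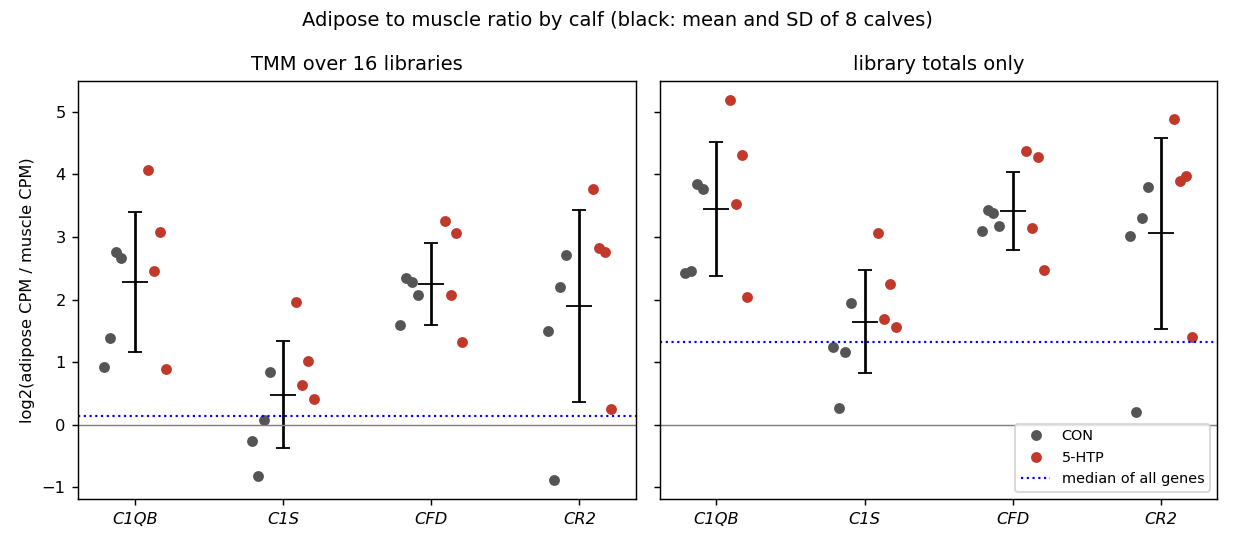
The log2 ratio of adipose to muscle CPM in each calf (grey CON, red 5-HTP) for each gene, with the mean and SD of 8 calves in black, under TMM over 16 libraries (left) and library totals only (right). The dotted line is the median of all genes (0.14 left, 1.33 right), and C1S sits nearest to it in both panels.

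The co-variation of the genes was measured on deviations of log2(CPM + 1) from the mean of each treatment group, so that the difference that chose the genes does not enter. In muscle, all 4 genes lay on the same side of their group mean in 7 of 8 calves. Calves 1, 2 and 6 were above it for every gene, calves 3, 4, 5 and 7 were below it, and in calf 8 C1S was below and the others above. The 6 pairs had Pearson's r between 0.61 and 0.90, with a median of 0.72. In adipose tissue the same held in 3 of 8 calves, and r was between 0.17 and 0.78, with a median of 0.66.

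With all 8 calves, r was highest in both tissues for C1QB with C1S, a subunit and a protease of the same complex. In muscle r was 0.90 and Spearman's rho 0.95 (n = 8; exact permutation within groups, p = 0.0191 for r and 0.0122 for rho, 0.0903 and 0.0729 adjusted over 12 pairs). In adipose tissue r was 0.78 and rho 0.86 (exact permutation within groups, p = 0.0139 and 0.0122, adjusted 0.0903 and 0.0729). Neither passed the adjustment. Without the 2 calves farthest from the median of C1QB, r was 0.85 in muscle (without calves 1 and 5) and 0.72 in adipose tissue (without calves 7 and 8). On those same calves it was exceeded by C1QB with CFD in muscle (0.87) and by C1QB with CR2 in adipose tissue (0.77), so the order of the pairs was not stable.

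CR2 followed C1QB and C1S in adipose tissue, with r of 0.76 and 0.70 (rho 0.79 and 0.69; exact permutation, adjusted p = 0.0903 and 0.176 for r, 0.107 and 0.141 for rho). In muscle these were 0.61 and 0.77 (rho 0.67 and 0.76; adjusted exact permutation p = 0.250 and 0.175 for r, 0.162 and 0.107 for rho). CFD with CR2 had r of 0.68 in muscle and 0.17 in adipose tissue, where it was -0.30 without calf 8 and 0.75 without calf 2. CFD with C1QB had r of 0.75 in muscle and 0.63 in adipose tissue, and 0.04 in adipose tissue without calf 8. CFD with C1S had 0.66 in muscle and 0.44 in adipose tissue, and 0.07 in adipose tissue without calf 8. Of the 12 pairs, 0 had an adjusted p at or under 0.05, with 3 at an unadjusted exact permutation p under 0.05, and all 12 were above 0. The share of all features with an r above 0 is not given, so this is not read as a trait of the members. In adipose tissue the r of 0.17 was above that of 51.0% of features with CR2. It was above that of 63.4% of features with CFD.

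**Figure D4:**
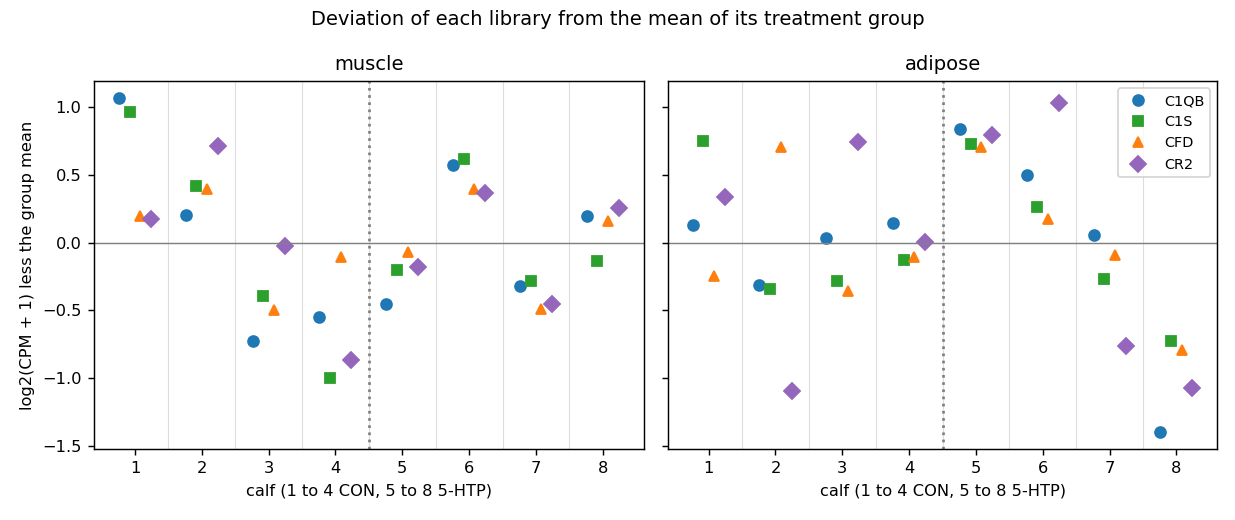
Deviation of log2(CPM + 1) from the mean of the treatment group (y axis) for the 4 genes in each calf (x axis), in muscle (left) and adipose tissue (right). On the TMM scale shown, the 4 markers of a calf lie on 1 side of 0 in 7 of 8 calves in muscle, and in adipose tissue in 3 of 8.

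With calves matched by number, a calf that was high for a gene in muscle was not regularly high in adipose tissue. The correlation of the deviations between the tissues was -0.15 for C1QB, 0.43 for C1S, 0.28 for CFD and -0.15 for CR2 (rho -0.02, 0.29, 0.45 and -0.14; n = 8 each; exact permutation, adjusted p = 0.750 for each r and 0.967 for each rho). Without the 2 calves farthest from the median in adipose tissue, r was -0.10, 0.26, 0.31 and -0.27. In muscle calves 1 and 2 were the highest of all 8 for every member and calves 5 and 7 the lowest, while in adipose tissue calf 5 was within the upper 5 for every member. Calf 7 was second lowest in adipose tissue for every member, and calf 1 stayed among the upper 3.

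The members were also set beside all other features in each tissue. Among 15224 features with a mean of at least 1 CPM in muscle, C1S ranked 240 by its r with C1QB, above 98.4% of them, and CFD and CR2 were above 90.7% and 81.3%. In adipose tissue, out of 15763 features, C1S was above 96.6%, CR2 above 95.8% and CFD above 89.3%. Of the features with a symbol other than the members, the one most like C1QB in muscle was IGFN1 (r = 0.96, rank 34), followed by MRXA5 (spelled as in the gene list of the study; matrix remodeling associated 5) at 0.93 and CSF1, a growth factor of macrophages, at 0.88. CR2 in muscle was most like SIGLEC1 (r = 0.93, rank 18). Among these, CFD in muscle was most like CSF1 (0.84) and C1S most like MRXA5 (0.89, under the 0.90 of C1QB with C1S). In adipose tissue, members again left out, AOC1, an amine oxidase, was nearest to C1QB (r = 0.93, rank 37) and to C1S (0.75), RGS16 to CR2 (0.92) and CLSTN3 to CFD (0.57). C1QB was nearer to C1S (0.78) and to CFD (0.63) than those. These names come from a list of features with a difference between the treatments, so they are not a survey of all genes.

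The members differed in how variable they were between calves beyond counting. The biological coefficient of variation, from the dispersion edgeR fitted, was 0.408 for C1QB, 0.359 for C1S, 0.308 for CFD and 0.492 for CR2 in muscle, next to a median of 0.249 over all genes. In adipose tissue it was 0.376, 0.336, 0.363 and 0.578 in the same order, next to a median of 0.327. CR2 was thus the most variable member in both tissues, with a dispersion above 92.1% of genes in muscle and 86.4% in adipose tissue. Counting error made up 22.2% of the variance of CR2 and 15.5% of that of CFD in muscle, and 5.82% or less for the other members in muscle and for all 4 in adipose tissue.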

How the data were processed

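RNA-Seq of poly-A RNA was measured in 16 libraries from 8 calves. Per the methods and the submitters' processing notes, the authors trimmed the reads with Trim Galore 0.4.4, aligned them to the ARS-UCD1.2 genome (Hisat2), merged transcripts with Cufflinks 2.2.1 and ran htseq-count. What the authors deposited are its raw counts. Strand use in counting is not given in the sources used here.

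Samples were grouped by tissue and treatment. R 4.3.3, edgeR 4.0.16 and DESeq2 1.42.0 were used, with Python 3.11.15 for permutations and figures. Genes that reached 10 counts in 4 or more libraries were tested with TMM, the likelihood ratio test (the test the study names) and Benjamini-Hochberg adjustment, at an FDR of 0.20 for 5-HTP against CON and 0.05 between tissues. Permutation tests used log2(CPM + 0.001) for groups and log2(CPM + 1) for co-variation. Steps were tested on simulated data. No pair of replicates was within sampling noise (chi-square per degree of freedom at least 21.8). Replicates were separate calves.

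The members and lists were chosen with earlier results of these data known. Symbols came from the 31 named features of the supplementary gene lists. Named besides the 4 members were, per member and tissue, up to 3 symbol features with the highest r. Fewer than 3 markers of each list were matched, so no list was used as a set. The matched markers, SIGLEC1 and TTN, are given as single features and not as a measure of a cell type. The RefSeq table (ARS-UCD2.0) holds 0 Ensembl identifiers, which limited the matches, and for the same reason no coordinates or sequences are given. Alternatives tried were edgeR's quasi-likelihood test, DESeq2, RLE, no filter, a calf block, 1 treatment group, another pseudocount and leaving out each calf, with library totals only added after the data were seen.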

Additional observations from a re-analysis of the deposited data

Results flagged for a closer look

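Of 26 groups of 4 values examined (the CPM of each gene in each tissue and treatment, the tissue ratios by treatment and the adipose sum in muscle), 3 held a value far from the others by Dixon's test at the 95% level, where chance flags about 1 in 20. C1S in the muscle of 5-HTP-supplemented calf 6 was at 42.8 CPM, with the other 3 calves of its group between 22.4 and 24.9 CPM. C1S in the adipose tissue of CON calf 1 was at 104 CPM, with the others between 48.5 and 56.4 CPM. CFD in the adipose tissue of CON calf 2 was at 47.4 CPM, with the others between 22.2 and 26.4 CPM.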

How the results depend on the processing

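The members kept their direction in the 5 other settings that did not leave out a calf in each treatment comparison, and in every fit without a calf except C1S in adipose tissue (values above) and the tissue difference of CFD, at 0.02 without calf 5. No member was called in adipose tissue under any alternative. The number of genes called in adipose tissue was 22, 1 with the quasi-likelihood test, and between 4 and 56 without a calf. In muscle it was 34, 1 with the quasi-likelihood test, 21 with library totals only, and between 13 and 188 without a calf. Between tissues it was 14757 and 9362 with CON calves only, a fit with fewer libraries. For the tissue by treatment term it was 19 and between 12 and 44 without a calf. Apart from the values given above, the cause was not tested. With the calf number as a replicate block, 14808 genes were called between tissues and 20 for the tissue by treatment term, and no member changed its call between tissues. Libraries with the same number had correlated deviations over 0.1 in 6 of 8 calves (-0.25 to 0.28 across 14460 loci), with calves 1 and 2 as the exceptions. Of the adipose libraries, 5 of 8 correlated best with their own number, so the block is given as an alternative. No co-variation of 2 members passed the adjustment under any alternative. Few counts limit CR2 most, with 4 to 103 in muscle.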
